A study of Mus musculus with 29 samples.

Results

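The uterus on gestation day 1.5 (GD1.5) was compared between adult CD-1 mice that had received genistein as newborns (GEN) and mice that had received corn oil (CON). The arrays were chosen by their sample titles, which gave 4 GEN and 3 CON samples, or 7 of the 29 arrays of the series. Female pups of the CD-1 strain were given genistein daily at 50 mg/kg, or corn oil as the control, from postnatal day 1 to 5, and the uteri were collected in their later pregnancy. Age at collection was not given in the sources used here, nor whether 1 animal or several stand behind a sample. The p-values and standard errors therefore measure the spread between samples, which may be technical. That spread was estimated within groups over all 29 arrays and not from the 7 GD1.5 arrays alone.

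Genistein is a soy isoflavone that binds estrogen receptors, and it is used as a model of estrogen exposure in the newborn. In the mouse the uterine glands form after birth, while HOX, WNT and other patterning factors are setting the identity of each segment of the tract. At GD1.5 the uterus is still under the influence of estrogen from around ovulation, holds immune cells drawn in by mating, and no embryo has yet implanted.

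RNA was labelled with Cy3 and hybridised to Agilent single-colour arrays. A level below is the log2 processed intensity of a gene's probe relative to the 75th percentile of its array, so 0 is that percentile and a difference of 1 is 2-fold. Levels of different probes are not compared with each other. Between 71.3 and 76.7% of each array's spots passed the scanner's background test, and 0 were saturated. Marker genes of the uterus and of other sources were summed, each list on its own probes, and the lists are not compared in level. Smooth muscle markers had a summed level of 9.54 to 9.94 in CON and 9.67 to 10.10 in GEN (log2 of the summed scaled intensities of 11 genes), and simple epithelium markers 7.37 to 7.72 and 7.02 to 7.66 (14 genes). Ovary markers summed to 0.59 to 0.90 in CON and 0.67 to 1.26 in GEN (13 genes with a probe, 8 of them tested). Sperm markers summed to -1.48 to -0.96 and -1.32 to -0.84 (7 genes with a probe, 5 of them tested).

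Of 20504 genes tested, 20 were called at an adjusted p under 0.05 (0.0975%), 5 of them higher in GEN (0.0244%) and 15 lower (0.0732%). The higher genes included Hc, Tdrd12 and the clone D030035A18Rik. The lower genes included the transcription factor Spdef, the keratin genes Krt23 and Krt86, Tns4, Sidt1, Pbld2, Bex1, Vsig1, Atp6v1c2, Ttr, Mug1, the opposite-strand transcript Rptoros and the clones AK038867 and NAP027004-1. Differences above 1 were seen in 423 genes (2.06%) and below -1 in 250 (1.22%), called or not. The clones fall outside the rule for named genes and were added after their values were seen. In whole uterus, fewer cells of a type and less RNA per cell cannot be told apart. Background correction by normexp left 5 calls, 2 higher and 3 lower, of which 4 were among the 20.

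RefSeq promoters are described for 11 of the 17 called genes described here. The 250 bases before the start are printed for the 4 of these with the lowest adjusted p, to show the sequence ahead of each gene (mouse build GRCm38.p6, 5′ to 3′ on the gene's own strand, which is the minus strand for all 4). Capitals mark a match to TGTTTAC or TGTTTGC, a forkhead (FOXA) motif, or to GGTCA, the half-site of the estrogen response element. The regions are chr11:119834366-119834615 (Rptoros), chr17:27728952-27729201 (Spdef), chr2:35061413-35061662 (Hc) and chr16:44332839-44333088 (Sidt1).
Rptoros: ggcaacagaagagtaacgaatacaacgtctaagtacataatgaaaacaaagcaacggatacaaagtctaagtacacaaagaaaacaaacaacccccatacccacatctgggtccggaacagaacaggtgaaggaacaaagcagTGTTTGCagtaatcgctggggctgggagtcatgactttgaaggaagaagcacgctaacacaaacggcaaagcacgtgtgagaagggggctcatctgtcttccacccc
Spdef: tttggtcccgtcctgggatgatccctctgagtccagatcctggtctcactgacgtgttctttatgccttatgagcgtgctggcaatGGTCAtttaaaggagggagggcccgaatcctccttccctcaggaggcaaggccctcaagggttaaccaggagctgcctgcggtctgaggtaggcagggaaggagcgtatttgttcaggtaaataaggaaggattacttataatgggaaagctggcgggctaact
Hc: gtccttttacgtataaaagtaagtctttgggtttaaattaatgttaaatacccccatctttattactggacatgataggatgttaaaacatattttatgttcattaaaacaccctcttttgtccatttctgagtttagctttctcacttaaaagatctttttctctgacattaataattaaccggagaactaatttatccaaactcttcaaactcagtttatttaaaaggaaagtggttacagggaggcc
Sidt1: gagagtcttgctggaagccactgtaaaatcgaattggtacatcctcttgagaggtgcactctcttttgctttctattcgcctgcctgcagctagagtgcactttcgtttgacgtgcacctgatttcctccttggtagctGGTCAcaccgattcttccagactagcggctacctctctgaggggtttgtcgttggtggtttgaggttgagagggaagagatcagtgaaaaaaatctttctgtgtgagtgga

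On both strands of the promoters of the 11 genes (Tdrd12 had 2), the forkhead letters occurred once, in Rptoros, beginning 107 bases before the start. Of all 32536 promoters of that length, 7.31% held them. GGTCA occurred in Spdef, in Sidt1 and, on the other strand, in Krt23, and in 35.3% of all promoters. The whole estrogen response element (GGTCA and TGACC with any 3 bases between) occurred in 21 of the 32536 promoters (0.0645%), and in 0 promoters of the 11 genes. GGTCA is contained in the whole element, so those searches overlap. A match is a run of letters in this window and was not tested as a binding site.

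Spdef, an ETS transcription factor of mucus-secreting epithelium (probe at chr17:25900336-25900395, mm7), was steady in CON at -3.03, -3.23 and -3.14 and stood at -5.84, -7.36, -5.20 and -4.98 in GEN. All 4 GEN arrays were lower than the CON arrays, with GEN 2 lowest. Spdef fell by 2.71 (SE 0.41, adjusted p = 0.00783), or 6.54-fold, by 4.33 within the slide of CON 1 and GEN 2 and by 2.01 within that of CON 2, CON 3 and GEN 3. The call was lost without CON 2 (adjusted p = 0.0614) and in the fits of 13 or 7 arrays. A list of secretory epithelium and mucin genes, which did not include Spdef, had 15 members tested, 0 called, 11 lower and a median of -0.31.

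The abdominal HOX genes Hoxa10 and Hoxa11, which specify the uterus, differed by -0.00 and -0.17, and the sign for Hoxa10 turned under several settings. Hoxd9 differed by -0.48 (adjusted p = 0.607) and Msx1, a homeobox gene of receptive epithelium, by -0.85 (adjusted p = 0.896). The estrogen receptor Esr1 differed by -0.20 (SE 0.18, adjusted p = 1.0). The progesterone receptor Pgr stood at -1.46 to -1.42 in CON and -1.83 to -1.67 in GEN, without overlap, as was the case for 8.31% of all genes tested, and its difference of -0.31 (SE 0.19) did not pass (adjusted p = 0.978). The median of 15 steroid receptor and coregulator genes was -0.03, with 0 called.

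Rptoros is annotated on the strand opposite Rptor, which encodes raptor of the mTOR kinase complex (probe at chr11:119930229-119930288, mm7). It stood at -5.56, -3.76 and -3.26 in CON, and at -9.01, -8.98, -9.33 and -7.80 in GEN, where no array detected it above background. Rptoros was at least 7.93-fold lower in GEN (fitted difference -4.59, SE 0.57, adjusted p = 0.000418). A fold given as at least N sets the bright group's mean against the detection floor of the dim group's arrays. Rptoros remained called when any 1 array was left out (adjusted p = 3.34e-05 to 0.0108) and was lost under normexp correction (-1.33, adjusted p = 0.567) and with 7 arrays. Rptor itself differed by -0.04, and the 11 mTOR complex genes tested had a median of -0.04, a range of -0.12 to 0.10 and 0 calls.

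Sidt1, a transmembrane protein gene of the family named for systemic RNA interference (probe at chr16:44018176-44018235, mm7), stood at -2.17, -2.72 and -2.74 in CON and at -3.86, -4.48, -5.22 and -4.54 in GEN. The GEN arrays were all below the CON arrays and CON 1 was highest. Sidt1 fell by 1.98 (SE 0.33, adjusted p = 0.0159), or 3.95-fold, a second probe differed by -1.58, and the within-slide differences were -2.31 and -2.48. The call was lost without CON 1, CON 2, GEN 2 or GEN 3 (adjusted p = 0.0736, 0.0824, 0.0530 and 0.0568).

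Tns4, which encodes a tensin of epithelial cell adhesions (probe at chr11:99175434-99175493, mm7), stood at -4.33, -3.46 and -2.95 in CON and at -5.03, -5.92, -5.94 and -5.63 in GEN. CON 1 was the CON array nearest to GEN. Tns4 fell by 2.05 (SE 0.35, adjusted p = 0.0159), or 4.14-fold, with -1.58 and -2.74 within the slides. The call was lost without CON 2, CON 3, GEN 2 or GEN 3 (adjusted p = 0.126, 0.0900, 0.0675 and 0.0568).

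Pbld2 stood at -3.20, -2.39 and -2.05 in CON and at -3.73, -4.21, -4.28 and -3.89 in GEN, and Bex1, a brain-expressed X-linked gene, at -1.56, -0.82 and -0.72 in CON and at -2.69, -2.50, -1.91 and -2.21 in GEN. In both genes CON 1 lay lowest among the CON arrays without reaching the GEN arrays. Pbld2 fell by 1.47 (SE 0.26, adjusted p = 0.0199; second probe -1.05) and Bex1 fell by 1.29 (SE 0.26, adjusted p = 0.0464). Pbld2 was not called without CON 2, CON 3, GEN 2 or GEN 3 (adjusted p = 0.167, 0.120, 0.0858 and 0.0646). Bex1 was called only without CON 1 (adjusted p = 0.0130), and without each other array its adjusted p was 0.0514 to 0.323.

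**Figure D1:**
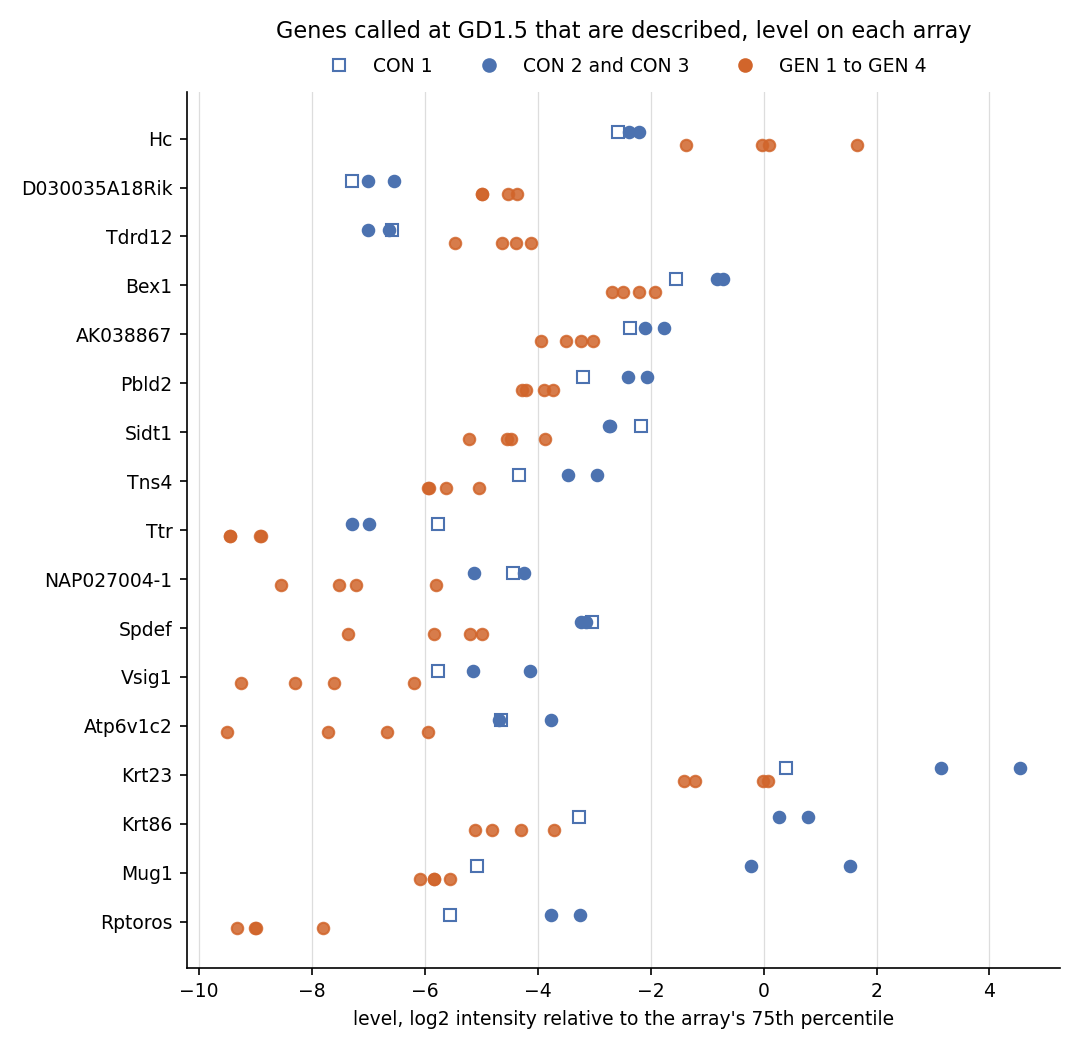
Level of the 17 called genes described on each array (horizontal axis, log2 intensity relative to the array's 75th percentile), ordered from the most positive difference to the most negative, with CON 1 as an open square, CON 2 and CON 3 as filled blue points and GEN as orange points. None of these 17 genes, which were chosen by the test between the same arrays, has overlapping groups. Of all genes tested, 8.31% have none. CON 1 is the lowest CON array in Krt23, Krt86 and Mug1, at 0.39, -3.27 and -5.07.

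The keratin genes called were Krt23, an epithelial type I keratin, and Krt86, a hair keratin. Krt23 stood at 0.39, 3.14 and 4.54 in CON and at -0.02, -1.21, -1.41 and 0.08 in GEN, and it fell by 3.33 (SE 0.59, adjusted p = 0.0199). CON 1 lay close above the highest GEN array, and CON 2 and CON 3 lay far above it. Without CON 1 the adjusted p was 5.24e-06, and the call was lost without CON 2, CON 3, GEN 2 or GEN 3 (adjusted p = 0.167, 0.0977, 0.0858 and 0.0646). The probe of Krt86 shares 20 bases with that of its neighbour Krt87, shown in capitals (mm7, chr15:101463017-101463076 plus strand and chr15:101419766-101419825 minus strand). Whether either probe also binds the transcript of the other gene was not tested, so the call may be of either gene.
Krt86: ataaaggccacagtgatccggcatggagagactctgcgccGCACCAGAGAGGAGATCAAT
Krt87: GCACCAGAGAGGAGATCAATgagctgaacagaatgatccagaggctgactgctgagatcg

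Krt86 stood at -3.27, 0.28 and 0.79 in CON and at -3.71, -4.30, -5.10 and -4.81 in GEN. Krt87 stood at -3.27, 0.28 and 0.84 in CON and at -3.69, -4.26, -5.05 and -4.71 in GEN, nearly the same values. Krt86 fell by 3.75 (SE 0.74, adjusted p = 0.0434) and Krt87 differed by -3.72 (SE 0.75), which missed the threshold (adjusted p = 0.0503). In both, CON 1 lay far below the other CON arrays and close to the highest GEN array. Krt86 was called only without CON 1 (adjusted p = 0.000199), and without each other array its adjusted p was 0.0501 to 0.337. The other 14 keratin genes tested were not called (0.0732% of all genes tested were called lower). Krt8, Krt18 and Krt19, which form the filaments of simple epithelium, differed by -0.09, -0.45 and 0.15, and the 16 keratins had a median of -0.14.

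Mug1 encodes murinoglobulin, a protease inhibitor of the alpha-2-macroglobulin family. Its levels of -5.07, -0.22 and 1.53 in CON had the widest spread of the called genes, against -6.09 to -5.56 in GEN, and it fell by 4.58 (SE 0.87, adjusted p = 0.0341). Within the slide of CON 1 and GEN 2 the difference was -0.77 and within the other slide -6.49. Mug1 was called only without CON 1 (adjusted p = 4.59e-07), and without each other array its adjusted p was 0.0516 to 0.299. Mug2 had the same order of CON arrays, at -6.17, -2.43 and -0.80, and CON 1 lay below all 4 GEN arrays (-6.01 to -5.64; difference -2.70, adjusted p = 0.242). The Mug1 and Mug2 probes share at most 6 bases in a row, and binding of either to the other gene's transcript was not tested. A2m and Cd109 differed by -0.37 and 0.11.

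Hc, which encodes complement C5 (probe at chr2:34990690-34990749, mm7), rose by 2.49 (SE 0.40, adjusted p = 0.0119), or 5.6-fold, from -2.58, -2.21 and -2.39 in CON to 0.10, -0.02, 1.66 and -1.37 in GEN. The CON arrays were close together and the GEN arrays were widely spread, with GEN 4 lowest and GEN 3 highest. Without CON 2 the call was lost (adjusted p = 0.0663), as it was in the fits of 13 or 7 arrays. Of the 21 complement genes tested, Hc was the 1 called (0.0975% of all genes tested), 17 were higher (47.7% of all genes) and 4 lower, and the median of 0.38 moved to 0.10 without CON 1. C6, which joins C5b in the membrane attack complex, stood at -6.08, -4.94 and -3.55 in CON and -3.54, -2.20, -2.83 and -3.79 in GEN (difference 1.77, adjusted p = 0.400). C3, the central component, differed by 0.07.

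Tdrd12, a tudor-domain gene of the germline piRNA pathway (probe at chr7:32386653-32386712, mm7), stood at -6.59, -6.62 and -7.00 in CON and at -4.38, -5.46, -4.63 and -4.12 in GEN. It rose by 2.09 (SE 0.38, adjusted p = 0.0243), and a second probe, above background in GEN only, differed by 1.65. The call was lost without CON 2, CON 3, GEN 1 or GEN 3 (adjusted p = 0.126, 0.0977, 0.0635 and 0.0646). The other 10 piRNA pathway genes tested were not called. Among these the germline helicase Ddx4 and Tdrkh had every GEN array above CON (0.60 and 0.37), as did 3.53% of all genes. Piwil2 and Henmt1 had every GEN array below (-0.55 and -0.58), as did 4.78%.

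Atp6v1c2 encodes a tissue-restricted C subunit of the vacuolar proton pump. It stood at -4.65, -3.77 and -4.68 in CON and at -6.67, -7.71, -9.50 and -5.95 in GEN, where 2 of 4 arrays were above background, and it fell by 3.09 (SE 0.58, adjusted p = 0.0285). It was called without GEN 1 or GEN 4 (adjusted p = 0.0256 and 0.00374) and not without the other arrays (0.0557 to 0.266). The widely expressed C subunit gene Atp6v1c1 differed by -0.08, and the other 18 pump genes tested ranged from -0.92 to 0.49. Vsig1, a junction protein gene of glandular epithelium, stood at -5.77, -5.14 and -4.14 in CON and -8.30, -7.61, -9.25 and -6.18 in GEN, where 1 of 4 arrays was above background. Vsig1 fell by 2.82 (SE 0.51, adjusted p = 0.0252). It was called without CON 1 or GEN 4 (adjusted p = 0.0150 and 0.000837) and otherwise not (0.0675 to 0.146).

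Ttr encodes transthyretin, which carries thyroid hormone and retinol-binding protein, and belonged both to the gland and to the retinoid list. It stood at -5.76, -6.98 and -7.29 in CON and at -9.44, -8.90, -9.44 and -8.92 in GEN, where it was above background on 0 arrays. Ttr was at least 1.42-fold lower (fitted difference -2.50, adjusted p = 0.0199), and it was called without CON 3 or GEN 4 (adjusted p = 0.0212 and 0.0218) but not without the others (0.0530 to 0.157). The 17 other retinoid genes tested were not called and the median of the 18 was 0.08. In the gland list, all 8 tested members were lower (52.3% of all genes), with Ttr the 1 called (0.0732% of all genes were called lower). Sox17 and Wfdc3 were lower by little (-0.10 and -0.38). The median was -1.82, or -1.98 and -1.96 within the slides, but the members behind it differed. Prss28 and Prss29 were higher in GEN within the slide of CON 1. Within the other slide Sox17, Wfdc3 and Cxcl15 were higher (0.42, 0.27 and 0.56). The remaining members were lower in each slide.

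The gland transcription factor Foxa2 stood at 2.05, 1.71 and 1.79 in CON and at 0.48, -1.16, 0.15 and 0.59 in GEN, with a difference of -1.84 that did not pass the test (SE 0.41, adjusted p = 0.0925). Prss28 and Prss29, the implantation serine proteinases of glands, differed by -3.25 and -3.59 with large errors (SE 2.08 and 1.64). The CON levels of Prss28 were -8.83, 3.54 and 5.36, while its GEN levels ran from -3.90 to -2.84. For Prss29 the CON arrays gave -5.05, 5.08 and 5.95 and the GEN range was -2.20 to -1.12. In both, CON 1 lay below every GEN array and CON 2 and CON 3 lay above every one. Within the slide of CON 1 the difference was 5.96 for Prss28 and 3.80 for Prss29, and within the other slide -8.35 and -7.71. The Prss28 probe was above background on 2 of the 3 CON arrays. The size of each Prss28 difference that uses CON 1, the fitted -3.25 included, therefore rests on a value near the floor. Without CON 1 both were called as lower (-7.67, adjusted p = 0.0112, and -7.11, adjusted p = 0.00138 by limma). Without CON 3 they differed by -0.58 and -1.61. Simple epithelium markers had a median of -0.16 (14 genes, 3 higher and 11 lower, 0 called).

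The clone transcripts D030035A18Rik, AK038867 and NAP027004-1 were also called. D030035A18Rik stood at -7.29, -7.01 and -6.54 in CON and at -4.37, -4.99, -4.99 and -4.53 in GEN and rose by 2.23 (adjusted p = 0.0285). AK038867 fell by 1.34 and NAP027004-1 fell by 2.67 (adjusted p = 0.0434 each). NAP027004-1 was above background on 1 of 4 GEN arrays, so the size of its difference rests on values near the floor, as does that of Vsig1. D030035A18Rik was called without CON 3 or GEN 4 (adjusted p = 0.0358 and 0.0490) and otherwise not (0.0568 to 0.178). AK038867 was called without CON 1, GEN 1 or GEN 4 (0.0454, 0.0323 and 0.0427; otherwise 0.121 to 0.210) and NAP027004-1 only without GEN 1 (0.00834; otherwise 0.0545 to 0.210).

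Other processing ended many of these calls. Under normexp correction Spdef, Hc and Krt23 were the 3 of the 17 described genes that remained called, and the differences of 10 genes were over 1.5 times smaller. Among these Spdef was at -1.43, Tns4 at -1.17, Sidt1 at -1.27 and Ttr at -0.46. Tdrd12 was at 0.76 and D030035A18Rik at 0.70. Vsig1 was at -0.82, Atp6v1c2 at -0.99 and NAP027004-1 at -0.81, and the value of Rptoros is given above. Quantile normalization kept the calls of Rptoros, Spdef, Hc, Sidt1, Krt23 and AK038867. With slide as a fixed block 8 of the 17 remained called and 9 did not, namely Pbld2, Krt23, Ttr, Tdrd12, Vsig1, D030035A18Rik, Mug1, Krt86 and Bex1. With the 7 arrays fitted alone 0 of the 17 were called.

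Beyond the calls, 222 of the 20504 genes tested passed a filter, 86 of them higher in GEN and 136 lower. The filter was an unadjusted p under 0.01, groups that did not overlap and a probe above background on at least 3 arrays of each group. Groups did not overlap in 8.31% of all genes tested. Where no gene differs, a share of 0.01 of genes has such a p, so the count does not mark changed genes. Those named here had the largest differences, and none passed the adjusted threshold. Scgb3a1, a secretoglobin of mucosal surfaces, stood at -1.77, 0.31 and 4.32 in CON and at -2.73, -4.05, -4.04 and -4.14 in GEN (-4.69, SE 1.03, adjusted p = 0.0891). Its CON arrays lay far apart, with CON 3 highest and CON 1 lowest. Gulo, which encodes the last enzyme of vitamin C synthesis, stood at 2.11, 1.03 and 0.73 in CON and at -0.51, -1.82, -1.24 and -0.81 in GEN. Gulo differed by -2.38 (SE 0.53, adjusted p = 0.0925) and its second probe by -2.19, and here CON 1 was the array farthest from GEN.

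Cyp1b1, a cytochrome P450 that hydroxylates estradiol, stood at -1.25, -1.80 and -1.82 in CON and at -4.11, -4.81, -4.45 and -2.53 in GEN (-2.35, SE 0.69, adjusted p = 0.315). Cyp3a25, a cytochrome P450 of liver type, stood at -3.66, -4.29 and -3.66 in CON and -5.36, -9.12, -6.77 and -6.66 in GEN (-3.10, adjusted p = 0.0665). Bpifb5, Adarb2 and Tmed6 differed by -3.39, -2.73 and -2.31 (adjusted p = 0.204 to 0.221). The probes of Adarb2 disagreed, since a second, above background on all 7 arrays, differed by 0.20. In each of these the lowest CON array was above the highest GEN array by the rule that chose them.

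Under the same filter, the largest positive differences were in Chil3 and Chil4, chitinase-like genes of alternatively activated macrophages. Chil3 stood at -3.44, -2.44 and -1.0 in CON and at 3.16, 1.72, 0.72 and -0.48 in GEN (3.57, SE 0.92, adjusted p = 0.229). Chil4 stood at -6.49, -5.65 and -4.26 in CON and at -0.24, -1.94, -2.81 and -3.93 in GEN (3.23, SE 0.81, adjusted p = 0.204). The arrays kept the same order in both genes, with CON 1 lowest and GEN 1 highest. The probes share at most 6 bases in a row, and binding of either to the other gene's transcript was not tested. Prg2, which encodes the major basic protein of eosinophil granules, stood at -5.03, -3.25 and -3.79 in CON and -2.18, -1.33, -1.92 and -2.09 in GEN (2.15, adjusted p = 0.315). Itprid1, Ms4a1, Pou2af1, Acsl6 and Tnfrsf14 differed by 3.07, 2.61, 2.23, 2.10 and 1.93 (adjusted p = 0.234 to 0.459).

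Mast cell markers were lower in value. Of 7 tested genes 0 were called, and 5 had every GEN array below every CON array, a pattern shown by 4.78% of all genes tested. These 5 encode granule proteases. Cma1, a chymase, stood at 1.84, 2.15 and 1.78 in CON and at 0.34, 0.20, -0.91 and 0.61 in GEN (-1.86, SE 0.71, adjusted p = 0.565). Cpa3, mast cell carboxypeptidase, stood at 0.08, 0.42 and -0.08 in CON and at -1.37, -1.32, -2.77 and -1.11 in GEN (-1.78, SE 0.81, adjusted p = 0.731). Mcpt4 differed by -2.09, Tpsb2 by -1.90 and Tpsab1 by -2.17. The CON arrays were tight in all 5 and GEN 3 was lowest. Kit, the growth factor receptor of mast cells that other uterine cells also carry, and Gata2 differed by -0.13 and 0.12. The list median was -1.86, -1.39 and -2.88 within the slides, and -1.96 to -1.54 when each array was left out.

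Other immune lists lay above 0 in value with 0 members called. Neutrophil markers had a median of 2.04 (12 of 12 higher), B and plasma cell markers 1.22 (10 of 10), MHC class II genes 0.79 (10 of 10), T cell markers 0.61 (10 of 10) and eosinophil markers 0.43 (6 of 6), against 47.7% of all genes above 0. NK cell markers had a median of -0.04 (4 of 9). CON 1 was the lowest array for most of these lists. Without it the neutrophil median was 0.91, the macrophage and dendritic cell median was 0.15 in place of 0.41, the eosinophil median was 0.081 in place of 0.43, and the B and plasma cell median was 1.25. In the B and plasma cell list 5 genes had every GEN array above CON, against 3.53% of all genes. Jchain, the joining chain of secreted antibodies, stood at 1.87, 1.56 and 0.40 in CON and 2.09, 5.32, 3.26 and 4.16 in GEN (2.43, SE 0.90, adjusted p = 0.529).

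Fat cell markers also varied between arrays. Their median relative to the CON mean was 1.57, -0.61 and -0.84 in CON and 4.30, 1.45, -0.05 and 3.28 in GEN 1 to GEN 4, with 9 of 10 genes higher and 0 called. The summed level was 3.31 to 3.75 in CON and 3.33 to 5.73 in GEN. GEN 1 and GEN 4, the arrays richest in fat markers, shared slide 3, which held no CON array of this day. Cfd, an adipocyte-secreted complement factor, had the highest difference of the complement list, at 2.59 (adjusted p = 1.0).

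**Figure D2:**
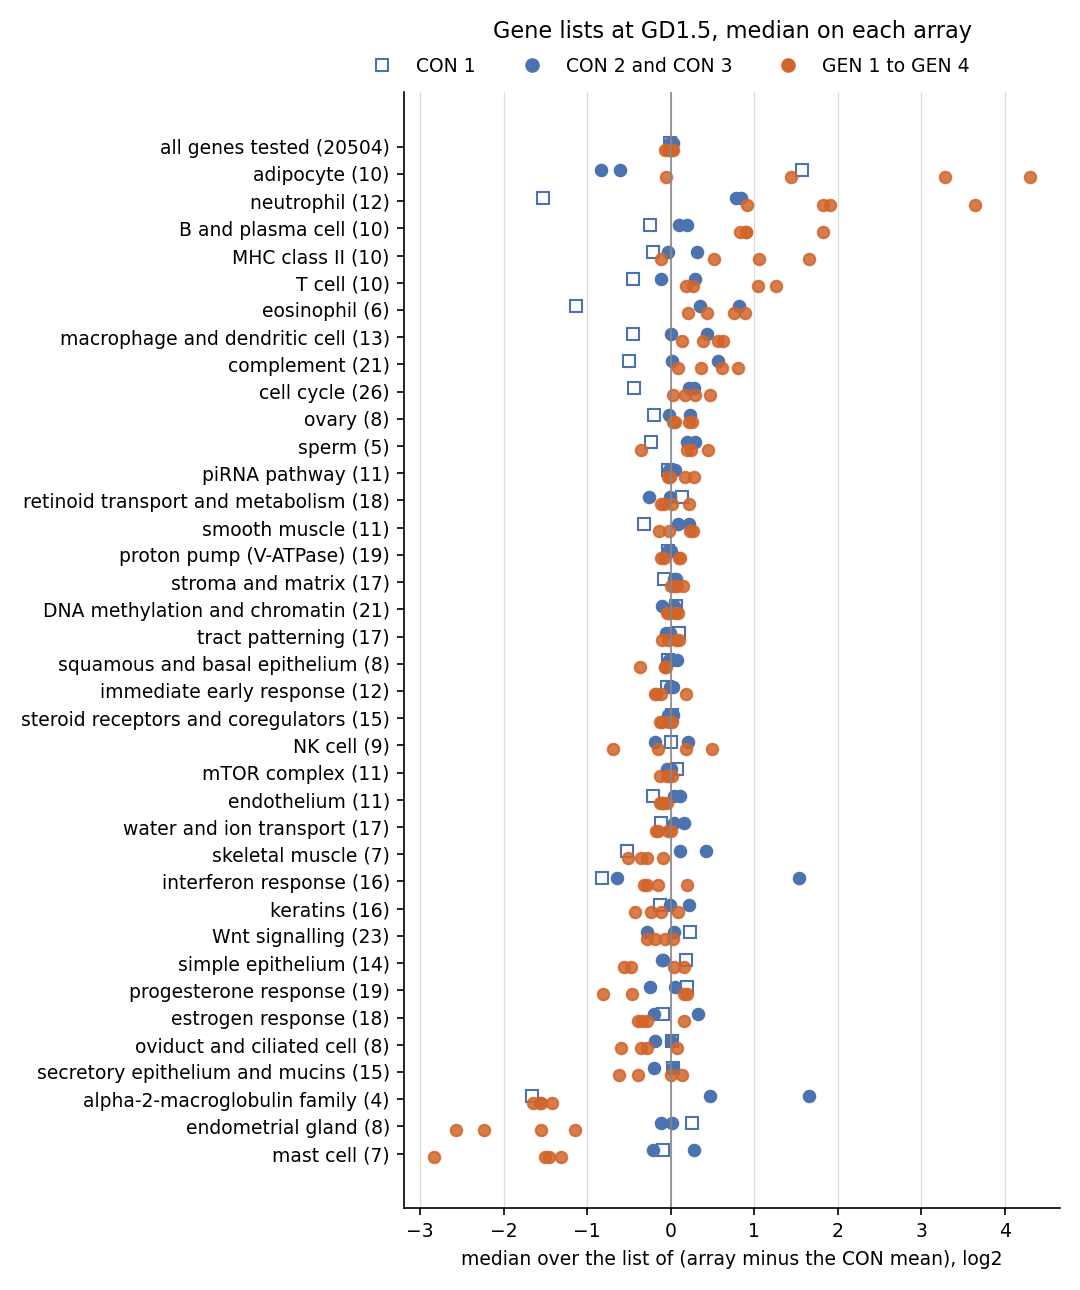
Median over each gene list of the array's log2 level minus the CON mean (horizontal axis), with the number of genes tested in parentheses, CON 1 as an open square, CON 2 and CON 3 as blue points and GEN as orange points. The gland and mast cell lists and, by a small margin, the squamous and basal epithelium list have all GEN arrays below all CON arrays. The neutrophil and the B and plasma cell lists have all GEN arrays above. For neutrophil markers CON 1 is the lowest array at -1.53, and the nearest arrays of the groups are CON 3 at 0.84 and GEN 4 at 0.91.

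Wnt pathway genes had a median of -0.15 (23 tested, 8 higher and 15 lower, 0 called), which was -0.0012 without CON 1. Sp5, a transcription factor induced by Wnt signals, stood at -0.26, -0.08 and -0.23 in CON and at -1.15, -2.35, -0.80 and -2.05 in GEN (-1.39, SE 0.43, adjusted p = 0.383). Its groups did not overlap. Axin2, a feedback inhibitor of the pathway, differed by -1.30 (adjusted p = 0.787), and GEN 2 stood at -5.07 while the other GEN arrays were at -0.89 to -0.68. The epithelial stem cell receptor Lgr5 differed by -1.09. The ligands Wnt4, Wnt5a and Wnt7a differed by 0.34, -0.00 and -0.15, of which the sign of Wnt5a and Wnt7a turned under alternatives, and Wnt11 differed by 1.23 (adjusted p = 0.459).

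Estrogen-responsive genes had a median of -0.22 and progesterone-responsive genes one of -0.21 (18 and 19 tested, 0 called in either). The estrogen median was -0.39 without CON 1. The progesterone median was -0.56 without CON 3 and 0.011, of the other sign, without GEN 2. The water channel gene Aqp5 stood at 3.78, 3.13 and 3.66 in CON and at 1.90, 2.02, 1.01 and 1.55 in GEN without overlap (-1.91, SE 0.67, adjusted p = 0.505). Ltf, the lactotransferrin gene induced by estrogen in epithelium, differed by 0.06, with the sign turning under median scaling and slide or replicate blocks. Calca, a progesterone-induced peptide gene of epithelium, ranged from -4.12 to 1.91 in CON and differed by -2.88 (adjusted p = 0.398). Foxj1, the regulator of motile cilia, differed by -1.85 (adjusted p = 0.275), and the 8 oviduct and ciliated cell markers had a median of -0.27. Cell cycle genes had a median of 0.23 (24 of 26 higher, against 47.7% of all genes, 0 called), which was 0.04 without CON 1. Interferon response genes had a median of -0.14 over 16 genes, with CON 3 apart from the other 6 arrays at a list median of 1.54. Without CON 3 the median was 0.56, so its sign turned, and it was -0.55 without CON 1 and -0.44 without CON 2.

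The CON arrays differed among themselves, CON 1 most. CON 1 differed by over 2-fold from the mean of CON 2 and CON 3 in 1702 genes (8.30%), 388 above and 1314 below, while CON 3 differed from the mean of the other CON arrays in 1275 genes (6.22%) and CON 2 in 535 (2.61%). The GEN arrays differed from the mean of the other GEN arrays in 768 to 1098 genes. CON 1 and the GEN arrays were over 2-fold apart in 10.3 to 12.2% of genes, CON 1 and CON 2 in 6.90% and CON 1 and CON 3 in 11.4%. CON 2 and CON 3, which shared slide 2, were so in 4.67%, and CON 2 and GEN 4 in 4.91%. Pairs within GEN were so in 5.43 to 10.1%, with GEN 2 and GEN 4 farthest apart. The 8 genes farthest below in CON 1 included the gland proteinase gene Prss29 (-10.6 against the mean of CON 2 and CON 3), Chil1 (-7.66), the neutrophil genes S100a9 (-6.33) and S100a8 (-6.06), and Mug1 (-5.72). Prss28, Stfa2l1 and Pip, the others of the 8, were above background on 2 of the 3 CON arrays, so the size is not given. Of the 8 genes farthest above, Calca (4.56) and the phospholipase gene Pla2g10 (4.07) were above background on all 3 CON arrays. The others, among them the EGF family ligand Areg and the gut lectin Reg4, were so on 1 or 2 of the 3.

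**Figure D3:**
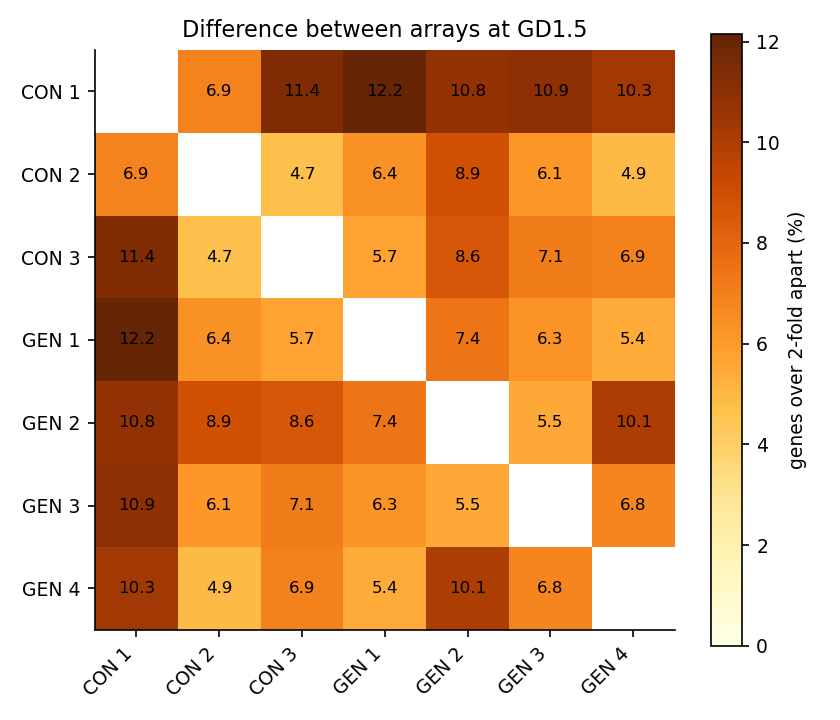
Percentage of genes tested that were over 2-fold apart between each pair of the 7 arrays, with the value printed in each cell and darker cells for higher percentages. The row of CON 1 runs from 6.9% against CON 2 to 12.2% against GEN 1, and the pair CON 2 and CON 3 has the lowest value, 4.7%.

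On GD3.5, when other uteri were measured, 16 of the 17 called genes described here kept the sign they had at GD1.5 (62% of all genes tested on both days did), and 4 of the 17 were called there, against 0.113% of genes tested that day. The 4 were Rptoros, Spdef, Sidt1 and Ttr, again lower (0.0686% of genes tested were called lower and 0.0441% higher). On GD4.5, 15 of 17 kept the sign (50.8% of all genes), and Sidt1, Ttr and NAP027004-1 were called as lower (0.157% of genes tested were called, 0.134% lower and 0.0231% higher). On GD5.5, 11 of the 14 that were tested kept it (52.3%), and 0 of 20826 genes were called. The GD3.5 arrays lay on the slides of GD1.5, except for CON 3 of GD3.5. The slides of GD4.5 and GD5.5 were separate from those of GD1.5. Each gene's estimate of spread was shared by all days, so the tests of the days are not independent of each other.

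Spdef in GEN stood at -5.84 ± 1.07, -5.35 ± 0.85, -4.26 ± 0.30 and -3.93 ± 0.39 over the 4 days in turn (mean ± SD, n = 4, 3, 4 and 4). In CON it stood at -3.13 ± 0.10, -2.87 ± 0.40, -2.64 ± 0.41 and -3.38 ± 0.25 (n = 3, 3, 4 and 4). The difference was -2.71, -2.48, -1.62 and -0.54 on these days, with the GEN mean below the CON mean on each. Sidt1 differed by -1.98, -2.18, -1.51 and -0.04. Its GEN mean was -4.52, -4.35 and -4.25 on the first 3 of these days, and its CON mean was -2.54, -2.17 and -2.74.

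Tdrd12 differed by -0.38, -0.35 and -0.45 on the later days and Hc by 1.62, -0.25 and 0.50. The GD1.5 effect minus the mean of the other days was 2.48 for Tdrd12 and had the lowest adjusted p of all genes (0.207), so 0 of 23337 genes differed by this test (813 had an unadjusted p under 0.05). The effect at GD3.5 minus that at GD1.5 also gave 0 calls by limma over 21062 genes (507 with an unadjusted p under 0.05).

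**Figure D4:**
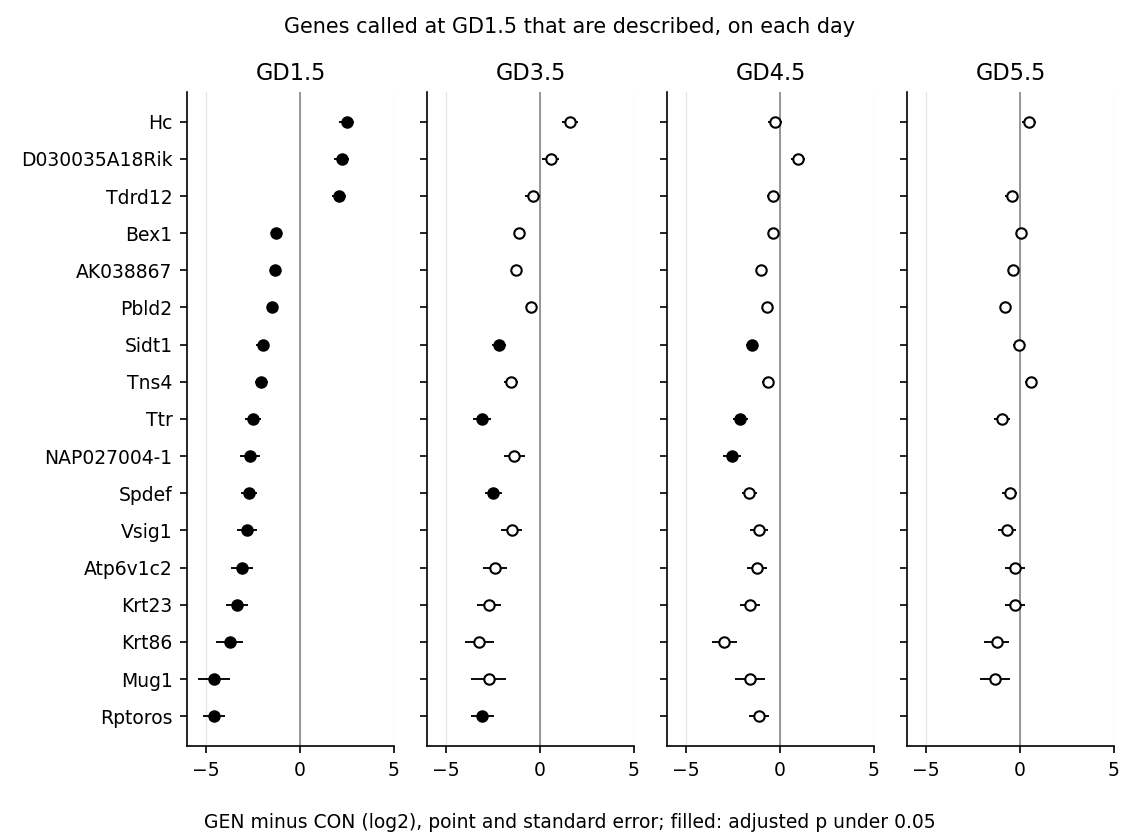
GEN minus CON difference (log2, point with its standard error) of the 17 called genes described, in a panel for each gestation day, with filled points for an adjusted p under 0.05 and no point where the gene was not tested. Spdef and Ttr lie to the left of 0 on all 4 days, and Tdrd12 lies to the right at GD1.5 only.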

How the data were processed

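Processed intensity values were deposited by the authors, who per the file headers and the submitters' processing notes extracted them with Agilent Feature Extraction 9.5 from Cy3-labelled RNA (500 ng). The series table held the same intensity values (largest difference 0). Probe positions are those of the array design (mm7).

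From there, log2 values were taken and the 75th percentile of the array was subtracted from each. Spots with outlier marks were left out, spots of a probe were averaged, and the brightest probe stood for a gene. Of 41174 probes, 22951 were named by accession, 6659 by symbol and 3109 by synonym through RefSeq, and 8455 kept the scanner file's name, giving 27670 genes. Genes well above background on at least 3 of the 7 GD1.5 arrays were tested.

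Group means of all 29 arrays (8 groups) were fitted with limma 3.58.1 (R 4.3.3, statmod 1.5.0, data.table in version 1.17.8), with moderated tests, Benjamini-Hochberg adjustment over all genes tested and calls at an adjusted p under 0.05. The median standard error at GD1.5 was 0.22, and the number of arrays limits the precision. Each gene had a single estimate of spread, shared by the 8 groups. Where the arrays of GD1.5 spread more than those of other days, the standard error does not show it. Mug1 in CON had an SD of 3.42 at GD1.5 and of 0.34 to 0.85 on the later days. The fit was tested on simulated data in which a gene had the same spread in every group. That test does not cover groups of unequal spread. CON 1 and GEN 2 lay on slide 1, CON 2, CON 3 and GEN 3 on slide 2, and GEN 1 and GEN 4 on slide 3. The main fit did not pair samples by replicate number.

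The comparison and the gene lists were chosen with earlier results of these data known, so lists are described by counts and medians without a test. Named genes were all called genes with a gene symbol, the 8 largest differences each way among genes not called that met the filter given in the text, preset key genes, the 2 highest and 2 lowest members of each list, relatives of called genes, and the 8 genes farthest each way in CON 1. Some called genes are not reported here, so 17 of the 20 are described. Alternatives were normexp correction (offset 50), quantile normalization, median scaling, other filters and probe rules, slide and replicate blocks, fewer arrays, array weights, a variance trend and leaving out each array.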

Additional observations from a re-analysis of the deposited data

Results flagged for a closer look

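Among 92 results examined for a sample far from the rest of its group of 4, 6 stood out by Dixon's criterion, and chance would mark about 1 in 20. Only the 4 GEN arrays were examined in this way, so no CON array could stand out. Scgb3a1 stood at -2.73 in GEN 1 and at -4.14 to -4.04 in the other GEN arrays. Bpifb5 stood at -4.36 in GEN 2 and at -3.68 to -3.54 in the others. Esr1 stood at 2.48 in GEN 4, within the CON range, and at 2.10 to 2.13 in the others. The median of B and plasma cell markers relative to the CON mean was 1.82 in GEN 2 and 0.83 to 0.91 in the others. That of mast cell markers was -2.83 in GEN 3 and -1.51 to -1.31 in the others. That of squamous and basal epithelium markers was -0.37 in GEN 2 and -0.07 to -0.05 in the others.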

How the results depend on the processing

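The count of calls at GD1.5 (20; 5 higher and 15 lower) depended on the processing. It was 5 (2 and 3) with normexp, 7 (2 and 5) with quantile normalization, 28 (5 and 23) with median scaling, 10 (5 and 5) with genes above background on all 7 arrays, 13 (4 and 9) with slide as a fixed block, 23 (13 and 10) with 13 arrays and 1 (1 and 0) with the 7 arrays alone. Of the calls, 4, 7, 19, 10, 10, 6 and 1 were among the 20. With array weights it was 1728 (676 and 1052), CON 2 alone receiving a weight of 7.77. Without filter, with the mean of probes, with slide as a random block and with a variance trend it was 17 to 24. The cause was not tested.

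With the replicate number as a block the count was 13 (4 higher and 9 lower), 6 of them among the 20. The deviations of same-numbered arrays from their group means correlated with r = -0.27, -0.10 and -0.09, and those of the other pairs with -0.13 to 0.28. With 3 CON and 4 GEN arrays, these values cannot decide whether the numbers pair samples.

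Leaving out 1 array gave 2 to 37 calls (1 to 11 higher, 1 to 26 lower): 25 without CON 1, 2 without CON 2 (Rptoros among them), 25 without CON 3, 17 without GEN 1, 5 without GEN 2, 9 without GEN 3 and 37 without GEN 4. The effect at GD3.5 minus that at GD1.5 gave 1 call with 13 arrays (1 lower), 135 with array weights (48 and 87) and 0 to 1 when an array was left out (0 to 1 lower). The effect at GD1.5 minus the other days gave 1 with the mean of probes (1 higher), 149 with array weights (97 and 52) and 0 to 6 when an array was left out (0 to 2 higher, 0 to 6 lower).

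Signs turned in 7 key genes, none of them called. Areg was at -0.17 with normexp, -0.16 with quantile normalization, -0.25 with slide as a fixed block and -0.49 with the replicate block. Hoxa10 was at 0.013 with quantile normalization, 0.018 with slide as a fixed block and 0.0011 with it as a random block. Wnt5a was at 0.0027 with slide as a fixed block and 0.044 with array weights. Ltf was at -0.015 with median scaling, -0.17 with slide as a fixed block and -0.038 with the replicate block. When an array was left out the ranges were -0.95 to 1.63 for Areg, -0.88 to 0.27 for Ihh, -0.70 to 0.45 for Wnt7a, -0.33 to 0.19 for Sox17, -0.081 to 0.20 for Ltf, -0.084 to 0.10 for Wnt5a and -0.065 to 0.063 for Hoxa10. Probes not above background in a group give only a bound there.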
